A study of Mus musculus with 6 samples.

Results

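The Hox genes of mouse were followed here in RNA labelled as ovarian from females of high and low litter size. All 39 protein-coding members, taken by symbol from the 4 clusters and without antisense genes, were present among the 36727 genes of the count table. They comprise 11 Hoxa genes, 10 Hoxb genes, 9 Hoxc genes and 9 Hoxd genes, and each carries a paralog number between 1 and 13. High litter size was represented by 3 libraries, replicates 1, 3 and 4, and low litter size by 3, replicates 1, 2 and 5. For all of them the labels gave estrous-phased ovarian tissue of adult female F4 inbred Swiss albino mice aged 135 to 140 days. Litter size was the one difference the labels gave. Separate animals are not stated in the labels, so the p-values reflect only how far these libraries vary, and that variation may be technical.

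Hox genes encode homeodomain transcription factors that give cells their address along the body axis. Within a cluster the genes are switched on in order, low paralog numbers towards the head and high numbers towards the tail, and many adult tissues keep the code of the place where they arose. In the female tract of the mouse, Hoxa9 is known for the oviduct, Hoxa10 for the uterus, Hoxa11 for the uterus and cervix and Hoxa13 for the upper vagina, while the ovary does not derive from that duct.

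Levels are given as CPM, the estimated counts scaled to a common library total and corrected for composition by TMM. Total counts ran from 17620903 to 24758222, and 1 count was worth between 0.0389 and 0.0623 CPM. In bulk tissue, fewer cells of a type and less RNA per cell cannot be told apart. The labelled tissue was checked on 15 ovarian markers. Their summed level was 23.7, 32.3 and 5560 CPM in high replicates 1, 3 and 4, against 617, 26.2 and 2090 CPM in low replicates 1, 2 and 5. Inha, the inhibin subunit of granulosa cells, was at or below 2.12 CPM in high replicates 1 and 3 and low replicate 2 and at or above 110 CPM in the other libraries. The zona pellucida gene Zp3 had no count in high replicate 1 and low replicate 2. The steroid transport gene Star was still found in high replicates 1 and 3 and low replicate 2 at 15.8 to 16.8 CPM, against 39.5 to 2410 CPM in the other libraries. Inha and Zp3 were therefore at or near 0 in 3 of the 6 libraries and Star was low there, and the Hox log2 fold changes that turned in sign without these libraries are given below or in the closing section.

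Every library expressed Hox genes of all 4 clusters. The summed Hox level was 971, 396 and 300 CPM in high replicates 1, 3 and 4, against 461, 522 and 485 CPM in low replicates 1, 2 and 5. The low libraries lay close together, while the high libraries lay on both sides of them. Posterior genes (paralogs 9 to 13) made up 75.1, 36.5 and 34.4% of the Hox sum in high replicates 1, 3 and 4, against 38.2, 37.2 and 59.8% in low replicates 1, 2 and 5. Hoxb genes made up 14.6, 18.8 and 25.9% in the high libraries, against 49.5, 47.2 and 23.3% in the low libraries. Hoxc genes made up 3.10, 27.0 and 19.0% in the high libraries, against 2.7, 4.71 and 4.91% in the low libraries.

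**Figure D1:**
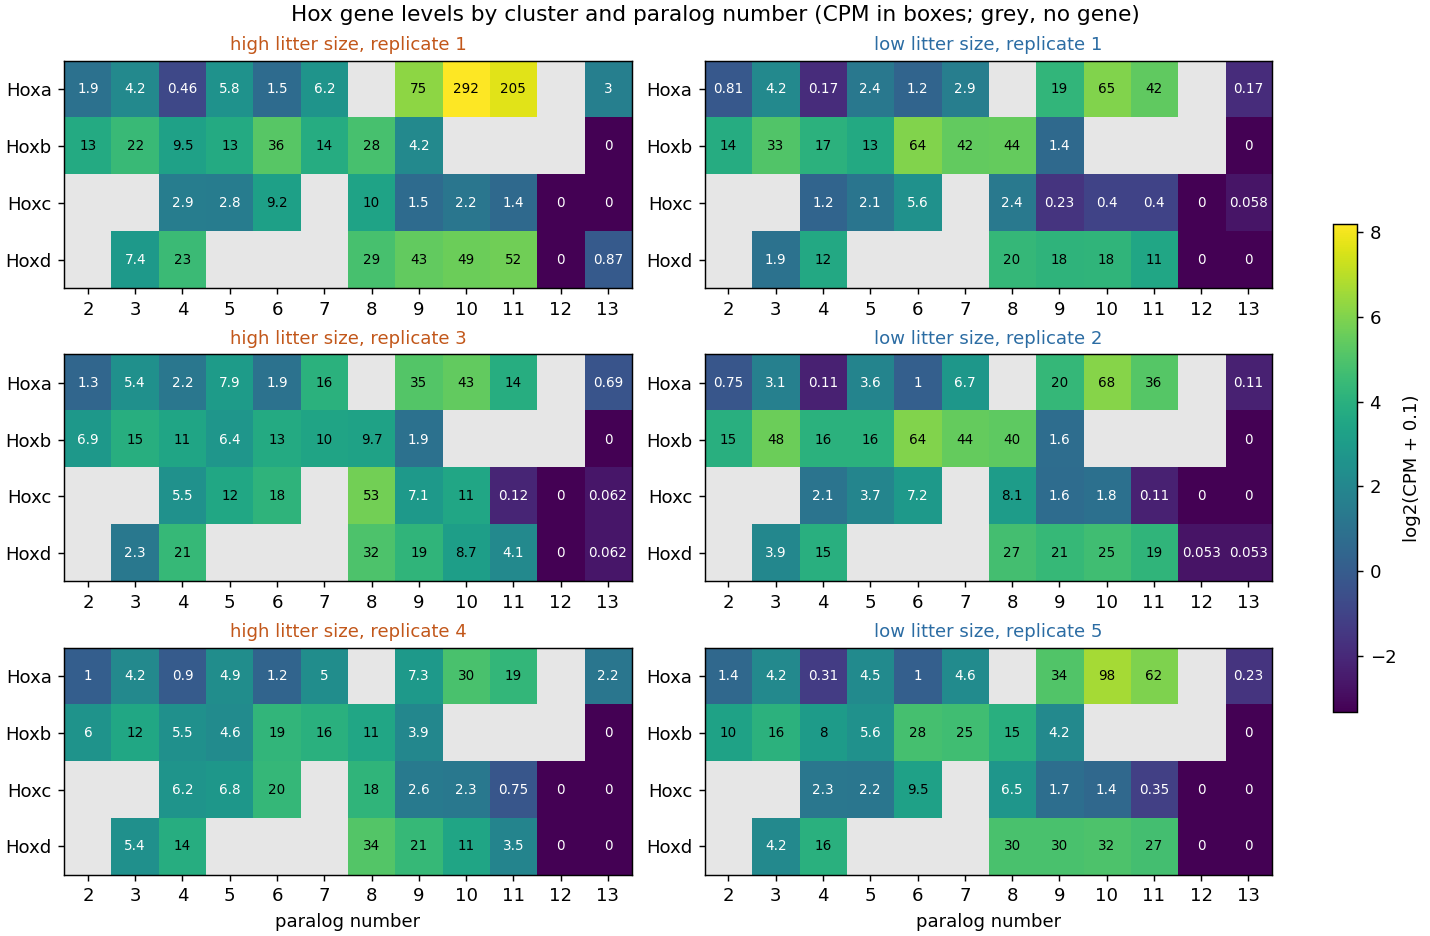
Level of the Hox genes of paralogs 2 to 13 in each library, as log2(CPM + 0.1) by colour and CPM in the boxes, with the 4 clusters in rows and the paralog number along the x axis. High litter size libraries are on the left and low litter size libraries on the right, and grey marks a paralog number the cluster lacks. Hoxa10 at 292 CPM in high replicate 1 is the highest box, and Hoxb13 and Hoxc12 are at 0 throughout.

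Per length of annotated exon, the highest mean levels over the 6 libraries were those of Hoxa10 (30.4 CPM per kilobase), Hoxa11 (27.5), Hoxb6 (19.0), Hoxb7 (16.3), Hoxd10 (13.3), Hoxd9 (11.7) and Hoxd8 (10.5). Neighbours in that order overlapped between libraries. Hoxa10, for example, ranged from 9.09 to 89.3 CPM per kilobase and Hoxb6 from 6.70 to 32.6. The order depends on the length used for some members. With the annotated principal transcript in place of all exons, Hoxd8 had 51.5 and Hoxd11 17.5 CPM per kilobase, against 10.5 and 4.62 over all exons.

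High was set against low litter size to ask which of these genes differ between the labelled groups. No Hox gene passed the edgeR quasi-likelihood test at an adjusted p of 0.05, whereas 1 of 16455 genes tested did (0.00608%). The low-count filter kept 29 of the 39 members. Their adjusted p-values ran from 0.162 to 0.980. Log2 fold changes, high minus low, were positive for 21 and negative for 8 of the 29, with a median of 0.52, beside a median of 0.068 and 55.3% positive over all genes tested. At an unadjusted p under 0.05 there were 6 members with higher and 2 with lower values, 8 in all. Over all genes 6.56% had higher and 7.82% lower values at that level, 14.4% in all. Complete separation of the groups was seen in 6 of the 29 members, 5 higher and 1 lower, and in 19.5% of all genes tested, 8.67% higher and 10.8% lower. Without high replicate 1, 30 members were tested and 0 passed, with 7 higher and 9 lower at an unadjusted p under 0.05, beside 7.57% and 7.65% of all genes. With DESeq2, which called 6.24% of all genes tested, 3 members passed, namely Hoxa13 and Hoxc8 with higher values and Hoxb7 with lower values in the high group, where all genes gave 2.15% higher and 4.08% lower.

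**Figure D2:**
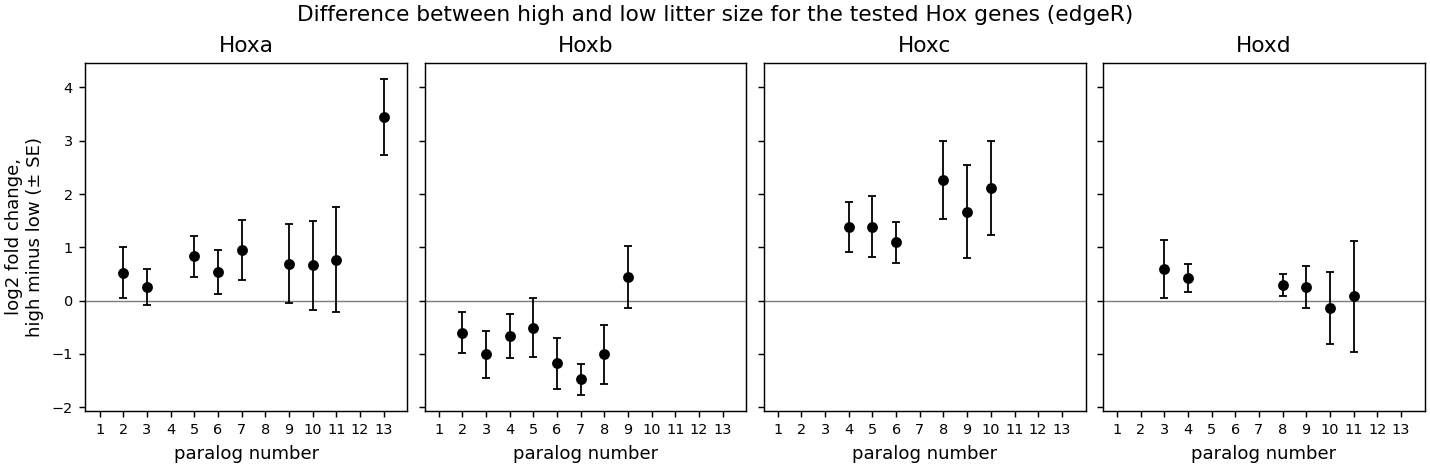
Log2 fold change of high minus low litter size, with its standard error, for the 29 tested Hox genes by cluster and paralog number (edgeR, 3 libraries per group). All 6 tested Hoxc genes lie above 0 and 7 of 8 tested Hoxb genes below it, and Hoxa13 lies highest at 3.45.

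By paralog number the median log2 fold change was 0.25 for paralogs 1 to 3, 0.47 for 4 to 8 and 0.68 for 9 to 13. Without high replicate 1, Hoxa9, Hoxa10, Hoxa11, Hoxd9, Hoxd10 and Hoxd11 lay between -2.33 and -0.23. Hoxa13, Hoxb9, Hoxc9 and Hoxc10 stayed positive. By cluster and with all libraries, the 9 tested Hoxa genes and the 6 tested Hoxc genes all had positive log2 fold changes. Of 8 tested Hoxb genes 7 had negative ones, and the 6 tested Hoxd genes lay between -0.14 and 0.59. The cluster medians were 0.69 for Hoxa, -0.84 for Hoxb, 1.53 for Hoxc and 0.28 for Hoxd. Summed by cluster, Hoxc averaged 64.7 ± 39.0 CPM in high and 20.3 ± 6.8 CPM in low libraries (SD, n = 3 each). The Hoxb sum averaged 97.9 ± 37.9 CPM in high and 196 ± 72.4 CPM in low libraries (SD, n = 3 each). Genes of 1 cluster are neighbours on 1 chromosome and in part share exons, so they are not independent of each other. Hoxa13, Hoxc9 and Hoxc10 also passed the low-count filter only with the high libraries.

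The posterior Hoxa genes on chromosome 6 (GRCm38, GENCODE M21 annotation) varied among the high libraries, with high replicate 1 the highest for all 4. Hoxa10 (ENSMUSG00000000938, 52231197 to 52240854, minus strand), needed for uterine identity and implantation in mice, had 292, 43.0 and 29.7 CPM in high replicates 1, 3 and 4, against 65.3, 67.9 and 98.2 CPM in low replicates 1, 2 and 5. Hoxa11 (ENSMUSG00000038210, 52242106 to 52245810), needed for the uterine stroma and glands, had 205, 14.2 and 19.3 CPM in the high libraries, against 41.6, 35.8 and 62.2 CPM in the low libraries. For both genes high replicate 1 lay above every low library and high replicates 3 and 4 below every one, so the groups overlapped. Their log2 fold changes were 0.66 (SE 0.84) and 0.77 (SE 0.99), each with an edgeR adjusted p of 0.765, and DESeq2 left their adjusted p undefined. Without high replicate 1 they became -1.11 (SE 0.30, adjusted p = 0.256) and -1.48 (SE 0.35, adjusted p = 0.241). Hoxa9, the oviduct member, had 74.9, 34.9 and 7.27 CPM in the high libraries, against 19.0, 20.3 and 33.5 CPM in the low libraries (log2 fold change 0.69, SE 0.74, adjusted p = 0.715, or -0.24 without high replicate 1). Here both high replicate 1 and high replicate 3 lay above all low libraries.

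Posterior Hoxd genes on chromosome 2 were also highest in high replicate 1, apart from Hoxd12. Hoxd11 (ENSMUSG00000042499, 74679557 to 74687016, plus strand), which acts with Hoxa11 in limb and kidney, had 52.3, 4.12 and 3.51 CPM in the high libraries, against 11.3, 18.7 and 26.7 CPM in the low libraries. Hoxd10 (ENSMUSG00000050368, 74691924 to 74695105), known from hindlimb motor neurons, had 49.2, 8.73 and 10.9 CPM in the high libraries, against 18.5, 25.4 and 31.7 CPM in the low libraries. Again high replicate 1 was above, and high replicates 3 and 4 below, all 3 low libraries. The log2 fold changes were 0.079 (SE 1.04) for Hoxd11 and -0.14 (SE 0.67) for Hoxd10, and -2.33 (SE 0.46, adjusted p = 0.222) and -1.37 (SE 0.34, adjusted p = 0.244) without high replicate 1. Hoxd9 had 42.8, 18.6 and 20.7 CPM in the high libraries, against 17.6, 20.9 and 29.9 CPM in the low libraries (log2 fold change 0.26, SE 0.39, or -0.23 without high replicate 1).

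**Figure D3:**
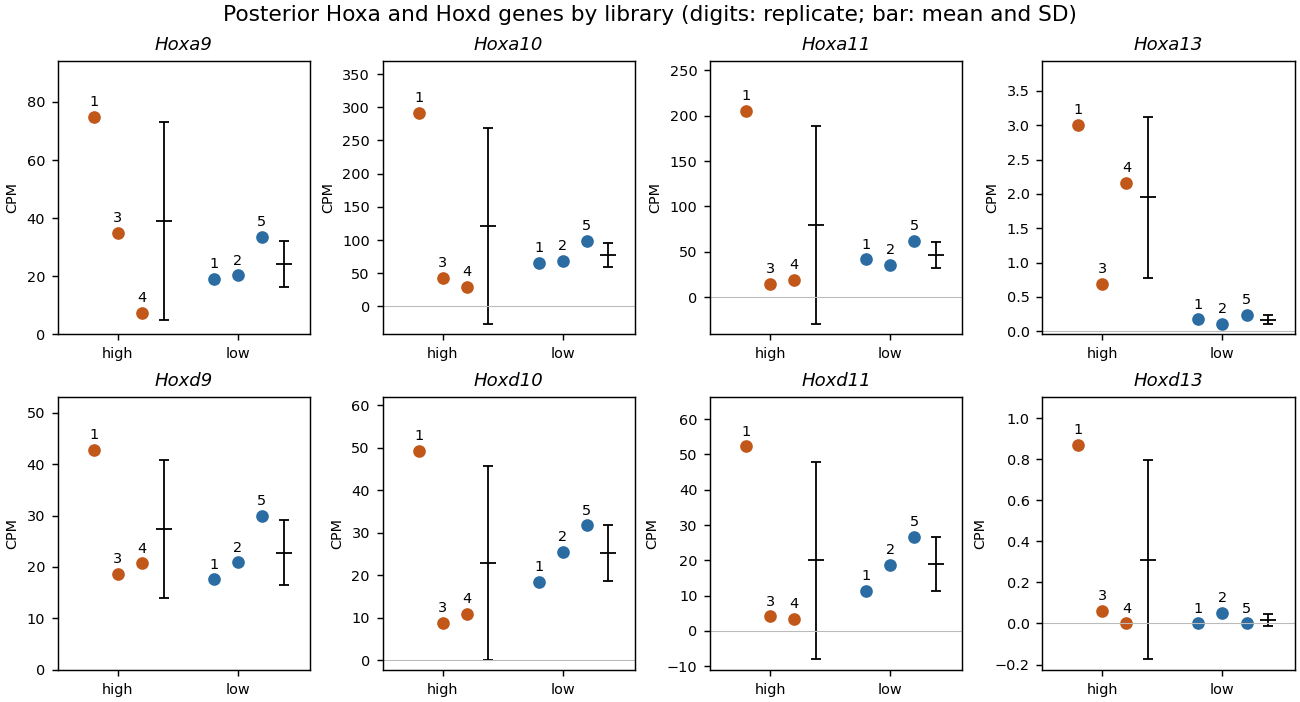
CPM of the posterior Hoxa and Hoxd genes in each library, high litter size left and low litter size right, with replicate numbers beside the points and the mean and SD of each group as bars (n = 3). High replicate 1 is the top point in all 8 panels, and only Hoxa13 has all high points above all low points.

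Of the 16 posterior members, 10 had their highest level in high replicate 1. Among tested genes these were 8 of 10 posterior members, while 15.3% of all genes tested were highest in that library. The members with another peak library were Hoxc9, Hoxc10 and Hoxc13, highest in high replicate 3, Hoxd12, with its single count in low replicate 2, and Hoxb13 and Hoxc12, which had none. Among paralog sums, paralog 10 genes summed to 343, 63.0 and 42.9 CPM in the high libraries, against 84.2, 95.1 and 131 CPM in the low libraries. Paralog 11 genes summed to 258, 18.4 and 23.6 CPM in the high libraries, against 53.3, 54.6 and 89.3 CPM in the low libraries. Ratios between neighbours were also compared. Per kilobase, Hoxa11 stood at between 0.755 and 1.0 times Hoxa10 in 5 libraries and at 0.471 times in high replicate 3. Hoxa10 stood at between 5.01 and 6.98 times Hoxa9 in the same 5 libraries and at 2.10 times in high replicate 3. High replicate 3 thus held more Hoxa9 relative to Hoxa10 and Hoxa11 than any other library. In Hoxd, Hoxd11 stood at 0.620 times Hoxd9 in high replicate 1, at 0.112 and 0.0860 times in high replicates 3 and 4, and at 0.325, 0.454 and 0.454 times in the low libraries.

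Some uterine gland genes peaked in high replicate 1, while the uterine marker list as a whole was lowest there. The protease genes Prss28 and Prss29 and the trypsin inhibitor gene Spink1 had 78.4, 330.0 and 163 CPM there and at most 3.01 CPM in any other library, and Prss28 and Spink1 were picked after their values were seen. Ltf, the oestrogen-induced lactoferrin of the uterus, had 88.9 CPM in high replicate 1, the lowest of the libraries, and 14100 CPM in low replicate 1, the highest. Over the 12 uterine gland and lumen markers, 4 of 10 tested had positive log2 fold changes, and the summed level was 746, 1080 and 5370 CPM in the high libraries, against 27200, 9180 and 5040 CPM in the low libraries. The part of these markers in the Hox levels was not tested.

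Promoter windows are shown for Hoxa10, Hoxa11, Hoxd10 and Hoxd11, the 4 posterior genes in which high replicate 1 lay above and the other high libraries below all low libraries, and for Hoxa13, whose groups did not overlap. RefSeq windows on GRCm38.p6, from 250 bases before to 50 after a start, were found for 22 of the 39 Hox genes, in 24 windows. Capitals mark TATAAA and CCAAT, searched on both strands. A TATAAA on the other strand reads TTTATA and so also holds the core TTTAT of posterior Hox binding. Hoxa10 and Hoxd11 each have a further window that is not printed. It lies at the annotated start of the gene, while the printed window lies at a start within the gene. In the unprinted windows TATAAA and CCAAT each have 0 matches.
Hoxa10, chr6:52234890-52235189, minus strand: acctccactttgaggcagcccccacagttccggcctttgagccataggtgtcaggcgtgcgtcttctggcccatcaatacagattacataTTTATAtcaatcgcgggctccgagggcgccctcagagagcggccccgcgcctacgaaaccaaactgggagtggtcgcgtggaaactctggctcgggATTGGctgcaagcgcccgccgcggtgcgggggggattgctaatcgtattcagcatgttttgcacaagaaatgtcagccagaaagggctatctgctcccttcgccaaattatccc
Hoxa11, chr6:52245761-52246060, minus strand: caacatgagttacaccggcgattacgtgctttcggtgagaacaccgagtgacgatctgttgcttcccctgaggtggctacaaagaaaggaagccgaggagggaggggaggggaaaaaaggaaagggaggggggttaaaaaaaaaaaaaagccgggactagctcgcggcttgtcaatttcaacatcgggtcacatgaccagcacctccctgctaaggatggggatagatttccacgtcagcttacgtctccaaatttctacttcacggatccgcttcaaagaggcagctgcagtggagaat
Hoxa13, chr6:52260831-52261130, minus strand: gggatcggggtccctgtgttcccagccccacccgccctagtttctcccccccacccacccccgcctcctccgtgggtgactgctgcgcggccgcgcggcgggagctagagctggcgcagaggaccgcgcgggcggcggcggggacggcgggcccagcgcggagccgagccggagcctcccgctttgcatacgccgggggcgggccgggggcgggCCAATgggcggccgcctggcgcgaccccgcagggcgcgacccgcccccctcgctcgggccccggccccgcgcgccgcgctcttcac
Hoxd10, chr2:74691641-74691940, plus strand: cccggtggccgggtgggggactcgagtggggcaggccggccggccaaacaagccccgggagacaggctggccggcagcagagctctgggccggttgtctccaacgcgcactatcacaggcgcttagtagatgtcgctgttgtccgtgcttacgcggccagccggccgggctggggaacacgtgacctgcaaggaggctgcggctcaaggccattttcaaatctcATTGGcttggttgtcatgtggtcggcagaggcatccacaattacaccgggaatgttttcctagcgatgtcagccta
Hoxd11, chr2:74682073-74682372, plus strand: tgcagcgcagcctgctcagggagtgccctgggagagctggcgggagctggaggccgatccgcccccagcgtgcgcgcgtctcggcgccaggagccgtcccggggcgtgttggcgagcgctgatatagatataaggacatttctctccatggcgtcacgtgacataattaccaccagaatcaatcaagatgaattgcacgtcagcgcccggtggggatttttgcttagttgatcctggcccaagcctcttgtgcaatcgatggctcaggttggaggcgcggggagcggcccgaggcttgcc

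TATAAA is in the printed Hoxa10 window and in 4 of the 24 Hox windows, against 13.6% of 32817 windows of all genes. CCAAT is in the printed Hoxa10, Hoxa13 and Hoxd10 windows and in 15 of the 24 Hox windows, against 37.4% of all. The core TTTAT is in 9 of the 24 Hox windows and in 40.0% of all windows. The Hox and Pbx composite TGATTTAT, in 0.978% of all windows, is in 0 of the 24. Hox windows hold a median of 14.5 CG pairs against 7 over all windows, and the Hoxa13 window holds 45, a number reached by 1.93% of windows. Such matches are descriptions of these windows and not binding sites.

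Hoxa13 (ENSMUSG00000038203, chromosome 6, 52257694 to 52260880), which specifies the caudal end of the tract and whose loss in humans causes hand-foot-genital syndrome, was low but ordered by group. It had 59, 11 and 43 counts in high replicates 1, 3 and 4, or 3.01, 0.686 and 2.16 CPM, against 3, 2 and 6 counts in low replicates 1, 2 and 5, or 0.173, 0.107 and 0.234 CPM. All high libraries lay above all low libraries. The log2 fold change was 3.45 (SE 0.71), with an adjusted p of 0.167 in edgeR and 0.00358 in DESeq2. Summed counts, scaled to library size, were 11.4 times higher in the high group, with a 95% counting interval of 6.15 to 23.5. Such intervals cover counting error only. The value stayed between 3.0 and 3.85 when any 1 library was left out. Hoxa13 passed the low-count filter through the high libraries, so a difference is built into its selection. Its share was small next to Hoxa11, per kilobase 0.0136, 0.0448 and 0.103 of the Hoxa11 level in the high libraries, against 0.00384, 0.00275 and 0.00348 in the low libraries.

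Markers of stratified epithelium, the lining of the vagina and skin, were higher in sum in the high libraries. Of 10 tested, 9 had positive log2 fold changes, 5 of them at an unadjusted p under 0.05, beside 6.56% higher over all genes tested. The summed level of the 10 was 194, 109 and 680 CPM in high replicates 1, 3 and 4, against 25.3, 22.7 and 13.5 CPM in low replicates 1, 2 and 5. Krt5, a basal cell keratin, had 81.3, 68.1 and 206 CPM in the high libraries, against 2.88, 12.9 and 0.428 CPM in the low libraries (log2 fold change 4.46, SE 1.17, edgeR adjusted p = 0.214). The high libraries lay above the low libraries for 4 of the 10, Trp63, Krt5, Krt15 and Ivl, and overlapped them for the others. Over all genes tested, 8.67% were separated in that direction. Of the 5 at an unadjusted p under 0.05, Krt5, Krt14, Krt15 and Ivl passed the low-count filter only with the high libraries. A difference is thus built into their selection. In high replicate 3, Krt13 had 0.686 CPM and Dsc3 had 0, and the median marker, centred on its mean log2 CPM, stood at -0.63 there and at -0.60 in low replicate 1. Hoxa13 was highest in high replicate 1 and Krt5 in high replicate 4, so the 2 genes did not share a peak library. Trp63, the master regulator of such epithelium, had 9.39, 14.7 and 11.3 CPM in the high libraries, against 0.75, 0.586 and 1.25 CPM in the low libraries (log2 fold change 3.76, SE 0.44, edgeR adjusted p = 0.14). The part of this epithelium in the Hoxa13 level was not tested.

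The other genes at the caudal end were at or near the limit of detection. Hoxd13, a digit and genital gene, had 17, 1 and 0 counts in the high libraries, against 0, 1 and 0 in the low libraries, so 1 library held nearly all of them. Hoxc13, a gene of hair and nail, had 1 count in high replicate 3 and 1 in low replicate 1, and Hoxd12 had 1 count in low replicate 2. Hoxb13, known from the prostate, and Hoxc12 had 0 counts in all 6 libraries, which allows a level of up to 0.117 to 0.187 CPM in a single library and of 0.0256 CPM over all 6, at 3 counts each. Hoxc11, a hindlimb gene, had 28, 2 and 15 counts in the high libraries, against 7, 2 and 9 in the low libraries.

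The 6 tested Hoxc genes on chromosome 15 were highest in high replicate 3 (4 genes) or 4 (2 genes), and low replicate 1 was the lowest library for all 6 tested. High replicate 3 was the highest library for 27.8% of all genes tested, and high replicate 4 for 17.3%. Hoxc8 (ENSMUSG00000001657, 102990607 to 102994111, plus strand), a thoracic gene that is also a mark of white fat cells, had 10.1, 53.3 and 18.3 CPM in high replicates 1, 3 and 4, against 2.42, 8.10 and 6.46 CPM in low replicates 1, 2 and 5. Hoxc10 (ENSMUSG00000022484, 102966796 to 102971893), a lumbar gene also found in mouse subcutaneous fat, had 2.19, 11.3 and 2.31 CPM in the high libraries, against 0.404, 1.81 and 1.40 CPM in the low libraries. In both genes the high libraries lay above the low ones, and high replicate 3 stood well above the others. The log2 fold change of Hoxc8 was 2.26 (SE 0.73, adjusted p = 0.272 in edgeR and 0.0276 in DESeq2), and 1.33 without high replicate 3. For Hoxc10 it was 2.12 (SE 0.88, edgeR adjusted p = 0.344), and 0.90 without high replicate 3. Hoxc9, a thoracic motor neuron gene, had 1.53, 7.11 and 2.61 CPM in the high libraries, against 0.231, 1.6 and 1.67 CPM in the low libraries, so its groups overlapped.

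The head-ward Hoxc genes had no common peak library. Hoxc6 (ENSMUSG00000001661, 102998257 to 103011881), a gene of the neck to thorax boundary, had 9.24, 18.0 and 20.2 CPM in the high libraries, against 5.59, 7.24 and 9.46 CPM in the low libraries. Hoxc4, a gene of cervical level, had 2.86, 5.49 and 6.17 CPM in the high libraries, against 1.21, 2.08 and 2.26 CPM in the low libraries. Both peaked in high replicate 4, whereas Hoxc5 peaked in high replicate 3, and the groups overlapped for Hoxc5 and Hoxc6. Hoxc5 had 2.76, 11.5 and 6.77 CPM in the high libraries, against 2.13, 3.68 and 2.22 CPM in the low libraries, and 5.4% of its exon length is also exon of Hoxc10. The log2 fold changes of Hoxc4, Hoxc5 and Hoxc6 were 1.38, 1.39 and 1.09, with edgeR adjusted p-values of 0.297, 0.347 and 0.304. At an unadjusted p under 0.05, 5 of the 6 tested Hoxc genes had higher values in the high group, beside 6.56% of all genes tested. Hoxc10, one of the 5, had 7 counts in low replicate 1, and Hoxc9 had 4 there. Both passed the low-count filter only with the high libraries, so a difference is built into their selection.

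Adipocyte markers peaked where Hoxc8, Hoxc9 and Hoxc10 did. Their summed level was 3500, 25300 and 2330 CPM in high replicates 1, 3 and 4, against 325, 3740 and 1280 CPM in low replicates 1, 2 and 5, and 9 of 9 tested had positive log2 fold changes. Adipoq, the fat cell hormone adiponectin, had 481, 2750 and 296 CPM in the high libraries, against 38.4, 485 and 113 CPM in the low libraries. Low replicate 1 was lowest both for the adipocyte sum and for the tested Hoxc genes. The libraries between were ordered otherwise. Low replicate 2 was next highest in the adipocyte sum. Its Hoxc sum of 24.6 CPM lay below the 30.1 and 57.1 CPM of high replicates 1 and 4. The part of fat in the Hoxc levels was not tested.

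**Figure D4:**
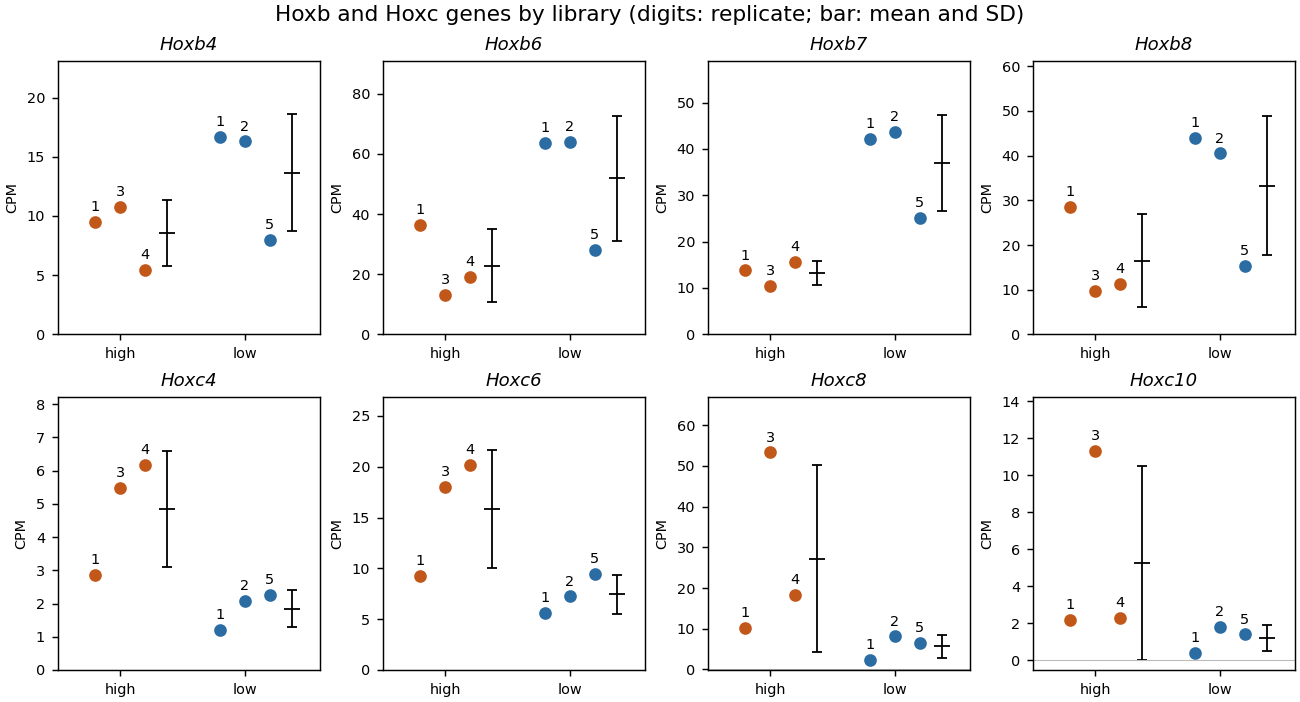
CPM of 4 Hoxb and 4 Hoxc genes in each library, high litter size left and low litter size right, with replicate numbers beside the points and the mean and SD of each group as bars (n = 3). The 4 Hoxb genes are highest in low replicate 1 or 2, and Hoxc8 and Hoxc10 in high replicate 3.

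On chromosome 11, 7 of the 8 tested Hoxb genes were highest in low replicate 1 or 2, and Hoxb9 was highest in high replicate 1. Low replicate 1 was the highest library for 17.2% of all genes tested, and low replicate 2 for 10.2%. Hoxb7 (ENSMUSG00000038721, 96286623 to 96290162, plus strand), known from the ureteric bud, had 13.8, 10.4 and 15.6 CPM in high replicates 1, 3 and 4, against 42.2, 43.6 and 25.1 CPM in low replicates 1, 2 and 5. Its high libraries lay below its low libraries, and among tested members of all clusters this order was seen for Hoxb7 only. The log2 fold change was -1.48 (SE 0.29), with an adjusted p of 0.162 in edgeR and 0.00147 in DESeq2, and it stayed between -1.69 and -1.33 with any 1 library left out. Hoxb6 (ENSMUSG00000000690, 96292476 to 96301569), a gene of the lateral mesoderm, had 36.4, 13.2 and 19.0 CPM in the high libraries, against 63.8, 64.0 and 28.0 CPM in the low libraries (log2 fold change -1.18, SE 0.48, edgeR adjusted p = 0.336). Hoxb8, a gene of thoracic level also active in blood formation, had 28.5, 9.73 and 11.2 CPM in the high libraries, against 43.9, 40.5 and 15.4 CPM in the low libraries. Low replicate 5 lay apart from the other low libraries for all 3 genes, and for Hoxb6 and Hoxb8 it lay below high replicate 1.

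Hoxb2, Hoxb3, Hoxb4 and Hoxb5 also had negative log2 fold changes. Hoxb3, a hindbrain and thyroid gene, had 22.5, 14.7 and 11.5 CPM in the high libraries, against 33.3, 48.4 and 16.5 CPM in the low libraries (log2 fold change -1.01, SE 0.44, edgeR adjusted p = 0.366). The antisense gene Hoxb3os covers 52.9% of the Hoxb3 exon length and was not among the counted genes, and the sources used here do not state strand, so reads of the pair cannot be told apart. Hoxb4, a blood stem cell regulator, had 9.49, 10.8 and 5.46 CPM in the high libraries, against 16.7, 16.3 and 7.98 CPM in the low libraries. Hoxb2, a hindbrain gene, had 13, 6.86 and 5.96 CPM in the high libraries, against 13.8, 15.4 and 9.96 CPM in the low libraries. Hoxb5, known from the vagal neural crest, had 13.2, 6.42 and 4.61 CPM in the high libraries, against 12.6, 16.4 and 5.61 CPM in the low libraries. In each of these, low replicate 5 was the lowest of its group and the groups overlapped. Hoxb9 stood apart from its cluster, with 4.24, 1.87 and 3.91 CPM in the high libraries, against 1.44, 1.65 and 4.20 CPM in the low libraries and a log2 fold change of 0.45. It was lowest in the 2 libraries where Hoxb6, Hoxb7 and Hoxb8 were highest.

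The balance between clusters was compared at matched paralog numbers. At paralog 8, Hoxc8 stood per kilobase at 0.330, 5.10 and 1.53 times Hoxb8 in high replicates 1, 3 and 4, against 0.0514, 0.186 and 0.390 times in low replicates 1, 2 and 5. High replicates 3 and 4 held more Hoxc8 than Hoxb8, and the other libraries less. At paralog 6, Hoxb6 stood at 4.84, 0.895 and 1.15 times Hoxc6 in the high libraries, against 14, 10.8 and 3.63 times in the low libraries. Hoxd8, a trunk gene, had 28.6, 31.7 and 34.3 CPM in the high libraries, against 20.5, 27.2 and 29.8 CPM in the low libraries, and its highest value was 1.67 times its lowest. Hoxa3 (1.73 times) and Hoxd4 (1.83 times) had ranges as narrow.

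**Figure D5:**
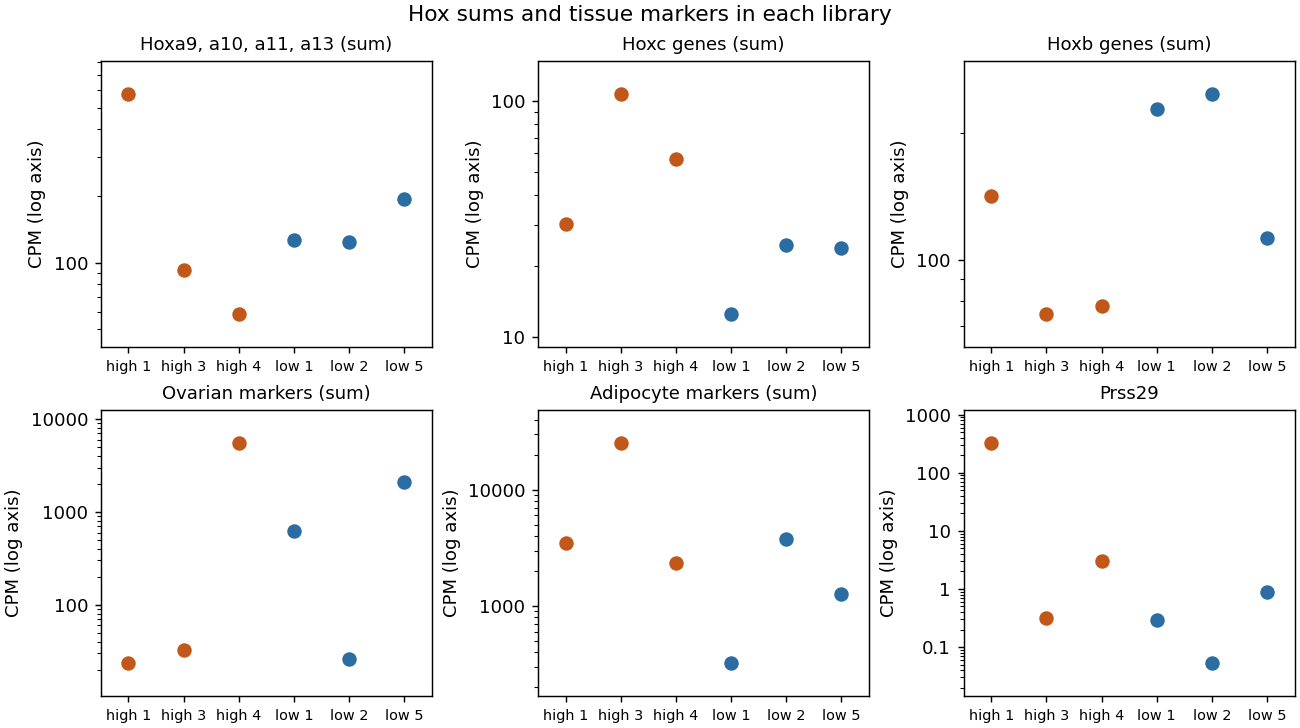
Summed CPM of the posterior Hoxa genes, of the Hoxc genes and of the Hoxb genes in each library, above the summed ovarian and adipocyte markers and the CPM of Prss29, on log axes with high litter size libraries first. High replicate 1 is the top point for posterior Hoxa genes (575 CPM) and Prss29 (330.0 CPM), and high replicate 3 for Hoxc genes (107 CPM) and adipocyte markers (25300 CPM).

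Ovarian markers ordered the libraries in another way. Posterior Hoxa genes summed to 575, 92.7 and 58.5 CPM in high replicates 1, 3 and 4, against 126, 124 and 194 CPM in low replicates 1, 2 and 5. The library of most ovarian marker RNA, high replicate 4, held the least, while low replicate 5, next in ovarian markers, held more than any library but high replicate 1. Smooth muscle markers, found in uterus, oviduct and vessels, summed to 10900, 3430 and 5640 CPM in the high libraries, against 8390, 13600 and 16100 CPM in the low libraries, with 8 of 9 tested negative in log2 fold change. High replicates 3 and 4 were lowest both for these markers and for Hoxa10 and Hoxa11. The part of smooth muscle in the Hox levels was not tested. Leaving out the 3 libraries low in ovarian markers left high replicate 4 against low replicates 1 and 5, a fit that assumes the lone library varies like the others. It gave 0 Hox genes past the threshold and 0 of all genes, and log2 fold changes of -1.49 for Hoxa10, -1.45 for Hoxa11, -1.88 for Hoxa9 and -2.47 for Hoxd11. Without a turn in sign, Hoxd10 had -1.24, Hoxc10 1.30, Hoxb2 -1.02, Hoxb4 -1.20, Hoxb5 -1.01, Hoxa5 0.48, Hoxa6 0.087, Hoxa7 0.36 and Hoxd4 0.0066. The 3 genes that DESeq2 called with all libraries also kept their sign, Hoxa13 at 3.32, Hoxb7 at -1.14 and Hoxc8 at 2.01.

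Head-ward Hoxa genes were low in every library, and 0 passed the test. Hoxa5, known from lung and rib patterning, had 5.82, 7.86 and 4.91 CPM in the high libraries, against 2.36, 3.57 and 4.52 CPM in the low libraries (log2 fold change 0.83, SE 0.39, edgeR adjusted p = 0.398), and its groups did not overlap. Hoxa7, of the thorax, had 6.17, 16.3 and 4.96 CPM in the high libraries, against 2.94, 6.66 and 4.59 CPM in the low libraries, and it peaked in high replicate 3 like Hoxc8. Hoxa3, a gene of thymus and parathyroid, had 4.18, 5.42 and 4.16 CPM in the high libraries, against 4.21, 3.14 and 4.20 CPM in the low libraries. Hoxa2, of the branchial arches, ran from 1.0 to 1.89 CPM in the high libraries, against 0.746 to 1.36 CPM in the low libraries, and Hoxa6, of the thorax, from 1.2 to 1.93 CPM, against 1.01 to 1.21 CPM. Hoxa4, of the neck, did not pass the filter and had 9, 36 and 18 counts in the high libraries, against 3, 2 and 8 in the low libraries. Hoxb1, of the hindbrain, likewise had 10, 8 and 11 counts in the high libraries, against 5, 10 and 7 in the low libraries.

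In the Hoxd cluster, Hoxd4, a gene of cervical level, had 22.7, 20.8 and 14.5 CPM in the high libraries, against 12.4, 15.1 and 15.8 CPM in the low libraries (log2 fold change 0.42, SE 0.26). Hoxd3, which shapes the first neck vertebra, had 7.40, 2.31 and 5.36 CPM in the high libraries, against 1.90, 3.89 and 4.24 CPM in the low libraries (log2 fold change 0.59, SE 0.55). The groups overlapped for both. The 2 genes share exons with each other and with the predicted coding gene Gm28230, which overlaps 53.1% of Hoxd3 and 39.1% of Hoxd4 exon length and had 312, 102 and 141 counts in the high libraries, against 110, 159 and 271 in the low libraries. How reads were divided among them is uncertain. Likewise, the antisense gene Hoxa11os covers 35.0% of the Hoxa11 exon length. Hoxd1 had 4, 3 and 2 counts in the high libraries, against 0, 1 and 1 in the low libraries.

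TALE homeodomain proteins bind DNA together with Hox factors. Of 10 TALE cofactors, 9 were tested, 0 passed in either direction, 0 had an unadjusted p under 0.05 and the median log2 fold change was 0.14. Meis2, one of them, had 122, 34.7 and 73.0 CPM in the high libraries, against 42.0, 62.0 and 55.8 CPM in the low libraries. Pbx3, the tested cofactor of smallest p, had 10.2, 6.36 and 26.3 CPM in the high libraries, against 7.27, 7.72 and 10.9 CPM in the low libraries (log2 fold change 0.73, SE 0.54, edgeR adjusted p = 0.585). Meis2 was highest in high replicate 1 and Pbx3 in high replicate 4. Of 22 Polycomb and trithorax genes, which keep Hox clusters off or on, all were tested and 0 passed. Cbx7, a Polycomb chromobox gene, had 27.2, 34.7 and 34.4 CPM in the high libraries, against 24.3, 16.8 and 13.7 CPM in the low libraries (log2 fold change 0.81, SE 0.27, edgeR adjusted p = 0.283). The ParaHox genes Cdx1, Cdx2, Cdx4, Gsx1, Gsx2 and Pdx1 had at most 0.117 CPM in sum in any library.

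Retinoic acid, made from vitamin A, sets the head-ward Hox genes in the embryo. Of 18 genes of its synthesis, breakdown and reception, 17 were tested and 0 passed in edgeR. At an unadjusted p under 0.05, 2 were higher and 4 lower, beside 6.56% and 7.82% of all genes tested. Rdh10, which makes the retinal precursor, had 80.5, 72.2 and 106 CPM in the high libraries, against 315, 404 and 231 CPM in the low libraries (log2 fold change -1.88, SE 0.29, adjusted p = 0.14 in edgeR and 1.98e-06 in DESeq2). Its high libraries lay below its low libraries. Like the tested Hoxb genes other than Hoxb9, it was lowest of the low group in low replicate 5. Crabp2, a carrier of retinoic acid, had 0.868, 3.87 and 7.12 CPM in the high libraries, against 75.7, 26.4 and 17.7 CPM in the low libraries (adjusted p = 0.214 in edgeR and 0.00185 in DESeq2). Crabp1 had a log2 fold change of -2.41 and the synthesis enzyme gene Aldh1a3 of 1.87. Crabp1 had 7, 9 and 13 counts in the high libraries, against 29, 35 and 125 in the low libraries. Crabp1 passed the low-count filter only with the low libraries, so a difference is built into its selection. DESeq2 called 3 genes of this list lower (Rdh10, Crabp1 and Crabp2) and 2 higher, Aldh1a3 and Stra6. Stra6, the gene of the receptor for retinol-binding protein, is named here because of that call.

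Among 17 genes that act with or below Hox genes in the uterus, 16 were tested and 0 passed in edgeR. At an unadjusted p under 0.05, 1 was higher and 5 lower, beside 6.56% and 7.82% of all genes tested. The median log2 fold change was -0.63. Emx2, which Hoxa10 represses in the endometrium, had 56.1, 24.2 and 35.9 CPM in the high libraries, against 81.1, 70.4 and 79.4 CPM in the low libraries (log2 fold change -0.99, SE 0.32, edgeR adjusted p = 0.272). Itgb3, an integrin gene that Hoxa10 activates there, had 83.1, 40.3 and 55.0 CPM in the high libraries, against 81.4, 137 and 177 CPM in the low libraries (log2 fold change -1.15, SE 0.38, edgeR adjusted p = 0.285). High replicate 1, with the most Hoxa10, was the highest of the high group for both and lay above all low libraries in neither. Pgr, the progesterone receptor, had 181, 97.2 and 41.3 CPM in the high libraries, against 350.0, 320.0 and 476 CPM in the low libraries (log2 fold change -1.84, SE 0.53, adjusted p = 0.24 in edgeR and 0.016 in DESeq2). It was the one gene of this list that DESeq2 called. The high libraries lay below the low libraries for Pgr, Emx2, Wnt5a and Esr1, as for 10.8% of all genes tested. Esr1 was named for this after its values were seen. Wnt5a had a log2 fold change of -0.84. Msx1, a homeobox gene of the uterine epithelium, had 87.7, 20.5 and 6.62 CPM in the high libraries, against 23.5, 44.8 and 54.7 CPM in the low libraries, the same order as Hoxa10 among the high replicates. Hand2, a stromal factor under progesterone, had 54.9, 7.67 and 3.91 CPM in the high libraries, against 11, 18.4 and 21.8 CPM in the low libraries. For Msx1 and Hand2, as for Hoxa10, high replicate 1 was above and high replicates 3 and 4 were below all low libraries. They were named for this pattern after their values were seen.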

How the data were processed

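Counts of 6 RNA-seq libraries were used, 3 per litter size group as labelled, with replicate numbers from the titles. The deposited values are estimated counts per gene. Per the submitters' processing notes, tools were kallisto, Trim Galore and DESeq2 on GRCm38, with no versions given. That the whole numbers are rounded kallisto estimates is not stated. Libraries were poly(A)-selected, per the labels' protocols. Reads of genes that share exons are divided by estimate, and intervals cover counting error only.

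The Hox genes were found by symbol. Symbols matched 35869 of 36727 genes. Coordinates and exon lengths are from GENCODE M21 on GRCm38. The 16455 genes kept by filterByExpr (count 10, total 15) were TMM-scaled and entered in edgeR 4.0.16 (R 4.3.3) with its quasi-likelihood test, high minus low, without covariates, with Benjamini-Hochberg adjustment over all of them. DESeq2 1.42.0, limma 3.58.1 voom and the other settings were alternatives. Tests were run on simulated data first. Tables and plots used Python 3.11.15, pandas 2.3.3 and matplotlib 3.10.9.

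Values of 1 Hox gene and of 1 cofactor that the naming rule takes in are not reported here. Members, lists and tests were chosen with earlier results of these data known. Hox genes with a mean of at least 2 CPM are given per library and the others by counts or range. Those whose groups do not overlap are named. In other lists, up to 4 tested genes of smallest p and the defining markers were eligible.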

Additional observations from a re-analysis of the deposited data

How the results depend on the processing

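No paired analysis was possible because high and low libraries have 1 replicate number in common. The number of Hox genes past the threshold was 0 in the main test, 3 with DESeq2 (2 higher, 1 lower) and 2 with the edgeR likelihood ratio test (Hoxa13 higher, Hoxb7 lower), and 0 under each other setting, with 0 to 0 when 1 library was left out. Over all genes the number was 1, against 1026 with DESeq2, 631 with the likelihood ratio test, 3 with limma voom, 2 with library size alone, 0 without the 3 libraries of low ovarian markers, a choice made after the data were seen, and 0 to 1 with 1 library left out. The log2 fold change kept its sign in every setting for 21 of the 29 tested Hox genes.

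The sign changed for 8. With limma voom, Hoxa10 had -0.068, Hoxa11 -0.22 and Hoxd11 -0.96. Without the 3 libraries of low ovarian markers, Hoxa2 had -0.15, Hoxa3 -0.045, Hoxa9 -1.88, Hoxa10 -1.49, Hoxa11 -1.45, Hoxd9 -0.23 and Hoxd11 -2.47. With 1 library left out the values ran from -0.24 to 1.15 for Hoxa9, -1.11 to 1.10 for Hoxa10, -1.48 to 1.27 for Hoxa11, -0.23 to 0.51 for Hoxd9, -1.37 to 0.25 for Hoxd10 and -2.33 to 0.56 for Hoxd11. The log2 ratio of mean summed CPM then ran from -0.49 to 0.48 for all Hox genes, -0.67 to 1.15 for Hoxa and -0.83 to 0.99 for paralogs 9 to 13, with the lowest value in each case without high replicate 1. For Hoxb it ran from -1.36 to -0.80 and for Hoxc from 1.10 to 2.02. Why high replicate 1 differs was not tested. Members whose groups did not overlap numbered 6 of the tested genes and 5 to 9 under the other scalings and filters. Depth limits Hoxa4, Hoxb1, Hoxc11, Hoxd1 and the paralogs 12 and 13 other than Hoxa13, which fell below the low-count filter. Without high replicate 1, Hoxa4 passed it and had a log2 fold change of 2.90 (edgeR adjusted p = 0.251).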
